A study of Mus musculus with 48 samples.

Results

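Edil3, Slc45a3, Enpp6 and Fn1 were followed through paired fractions of mouse endothelium, as 4 of the 15569 genes in the deposited count table. They were picked by symbol from earlier results on these data, as genes lower in TdTomato+ than in TdTomato- endothelial cells. That description held only in part. Edil3 was lower in TdTomato+ cells in 21 of 23 pairs of libraries, Enpp6 in 20, Fn1 in 19 and Slc45a3 in 18. The count of Edil3 includes pairs with equal raw counts that differed only after scaling: P6 muscle pair 3, with 4 and 4, and 6W heart pair 4, with 1 and 1. Fn1 was higher in TdTomato+ cells in 4 of 5 pairs of newborn lung. Because the difference between fractions chose the genes, it is described below with its standard error and without a test.

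The cells came from Abcg2CreERT;ROSATdTomato mice, in which a tamoxifen-dependent Cre recombinase made under Abcg2 control switches on the red protein TdTomato. Abcg2 encodes a drug efflux pump. All mice, whichever fraction was taken from them, carried both alleles and received 50 mg/kg tamoxifen 24 h before dissection. CD31+CD45-Ter119- endothelial cells were sorted into TdTomato+ cells, which the submitters call vascular endothelial stem cells, and TdTomato- cells, which they call mature endothelial cells. Newborn heart and lung (P1, postnatal day 1), young muscle (P6, postnatal day 6) and adult heart and muscle (6W, 6 weeks) were used. P1 lung, P6 muscle and 6W heart gave 5 pairs each, and P1 heart and 6W muscle 4 each. A pair is a TdTomato+ and a TdTomato- library of the same tissue, age and number, and the labels do not say that they came from the same animals. TdTomato marks cells in which Abcg2 was active within that day. The TdTomato- fraction holds all other CD31+ endothelium of the tissue and was not free of Abcg2 RNA. The labels do not say whether a library is 1 animal or a pool.

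The 46 libraries held 17512843 to 27622937 counts each. Levels are given as CPM, counts relative to the library total, after scaling by the trimmed mean of M values. A list of 12 pan-endothelial markers summed to 9584 to 24587 CPM over all libraries, with every marker detected in each group. In P1 lung the sum was 9584 to 13868 CPM in TdTomato+ and 14801 to 16628 CPM in TdTomato- cells. It was lower in TdTomato+ cells in 5 of 5 pairs of P1 lung and in 5 of 5 pairs of 6W heart. In P1 heart it was lower in 0 of 4 pairs, in P6 muscle in 2 of 5 and in 6W muscle in 1 of 4. Abcg2 itself averaged 83.6 ± 10.0 CPM in TdTomato+ and 60.1 ± 3.495 CPM in TdTomato- cells of P1 lung (SD, n = 5 each), but 116 ± 25.09 and 112 ± 5.46 CPM in P1 heart (SD, n = 4 each). The averages were 147 and 114 CPM in P6 muscle, 222 and 189 CPM in 6W heart and 327 and 278 CPM in 6W muscle, TdTomato+ before TdTomato- cells. TdTomato+ libraries of P1 lung pairs 6, 7 and 8 stood apart, with 24524, 44514 and 63183 CPM of summed lung epithelium markers, against 3110, 8251 and 7678 CPM in their TdTomato- partners. In pairs 1 and 5 the sums were 1468 and 2414 CPM in TdTomato+ cells and 2402 and 2039 CPM in TdTomato- cells. 6W heart pairs 5 and 6 are labelled heart in their titles and muscle in a tissue field. The cardiac transcription factor gene Gata4 stood at 7.56 to 18.2 CPM in those 4 libraries, against 0 to 1.58 CPM in the 8 libraries of 6W muscle. RNA integrity was lower in the TdTomato+ library of 18 of 23 pairs. The gap was widest in 6W muscle, where the scores were 6.8 to 7.9 in TdTomato+ and 9.2 to 10.0 in TdTomato- libraries, without overlap. In P1 heart they were 3.6 to 8.5 in TdTomato+ and 8.0 to 9.2 in TdTomato- libraries.

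Edil3 and Fn1 both encode secreted proteins that carry an RGD motif and bind integrins on endothelial cells. Edil3 was first described in embryonic vessels, and fibronectin, the product of Fn1, forms fibrils on which vessels are assembled. Slc45a3 encodes a membrane carrier of a small family of putative sugar transporters, known in human as the prostate protein prostein. Enpp6 encodes a choline-specific glycerophosphodiesterase that splits phosphocholine off lysophospholipids and glycerophosphocholine. In mouse brain its RNA marks newly formed oligodendrocytes.

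Edil3 (mm10 chromosome 13, 88821472 to 89323225, plus strand, 11 exon intervals) was abundant only in newborn lung. In P1 lung it stood at 26.9, 81.6, 52.7, 39.9 and 45.2 CPM in TdTomato+ cells, against 95.9, 115, 114, 104 and 151 CPM in the TdTomato- cells of the same pairs. Every TdTomato+ library lay below every TdTomato- library there. The fitted difference was 2.49-fold (log2 fold change -1.31 ± 0.40, SE, n = 5 pairs).

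In P1 heart Edil3 was nearly absent from TdTomato+ cells. The raw counts were 1, 0, 0 and 21 in the TdTomato+ libraries, against 144, 82, 60 and 133 in their TdTomato- partners. The levels were 0.0548, 0, 0 and 0.862 CPM in TdTomato+ and 5.58, 3.09, 2.60 and 5.20 CPM in TdTomato- cells, with no overlap. The fitted log2 fold change was -4.37 ± 0.68, and 21 of the 22 counts of the TdTomato+ group came from pair 5. Without pair 5 it was -7.42.

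In P6 muscle Edil3 ran from 0.0893 to 0.520 CPM in TdTomato+ and from 0 to 1.02 CPM in TdTomato- cells, and the groups overlapped. Pair 2 went the other way from the rest, with 11 counts in the TdTomato+ and 0 in the TdTomato- library. The log2 fold change of -1.12 ± 0.75 was -2.04 without pair 2 and -0.59 without pair 1. In 6W heart the TdTomato+ group held 7 counts in all and the TdTomato- group 35 (log2 fold change -2.33 ± 1.04, or -3.28 without pair 2). In 6W muscle all 4 TdTomato+ libraries had 0 counts, while their partners had 4, 10, 26 and 0. Against a floor of 3 counts over the TdTomato+ group, Edil3 was at least 13.0-fold lower in TdTomato+ than in TdTomato- cells of 6W muscle. Of the 40 counts of the TdTomato- group, 26 came from pair 4, and without that pair the bound was 4.62-fold. These floors, like the counts, cover counting error only.

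Fn1 (mm10 chromosome 1, 71585473 to 71653234, minus strand, 48 exon intervals) was the most abundant of the 4 genes. Per kilobase of exon it averaged 34.5 ± 7.68 CPM in TdTomato+ and 85.7 ± 14.8 CPM in TdTomato- cells of P1 heart (SD, n = 4). On the same scale Enpp6 averaged 1.04 and 13.12, Slc45a3 0.352 and 6.90, and Edil3 0.0428 and 0.769 CPM per kilobase, TdTomato+ before TdTomato- cells.

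In P1 heart Fn1 stood at 241, 333, 230.3 and 359 CPM in TdTomato+ cells, against 575, 838, 812 and 664 CPM in TdTomato- cells. The groups did not overlap, and the TdTomato+ level was 2.50-fold below the TdTomato- level (log2 fold change of -1.32 ± 0.18, SE, n = 4 pairs). In P6 muscle the values were 159.8, 212, 177, 142 and 147 CPM in TdTomato+ cells and 293, 294, 277, 256 and 310.0 CPM in TdTomato- cells. The groups were again apart, at a log2 fold change of -0.79 ± 0.16 (n = 5 pairs).

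At 6 weeks Fn1 was also lower in TdTomato+ cells of each pair. In 6W muscle it stood at 28.8, 50.7, 38.9 and 31.4 CPM in TdTomato+ cells, against 57.7, 164, 119 and 83.2 CPM in TdTomato- cells, 2.71-fold lower (log2 fold change -1.44 ± 0.18). In 6W heart the values were 71.5, 139, 118, 129 and 155 CPM in TdTomato+ cells and 94.0, 143, 231, 171 and 289.7 CPM in TdTomato- cells. Here the groups overlapped, the difference in pair 2 was -0.04 on the log2 scale, and the fitted log2 fold change was -0.54 ± 0.16.

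P1 lung gave the opposite direction. Fn1 stood at 433, 314, 217, 239 and 167 CPM in TdTomato+ cells, against 290.5, 180.3, 127, 156 and 235 CPM in TdTomato- cells. Pairs 1, 5, 6 and 7 had the higher level in TdTomato+ cells and pair 8 the lower (log2 fold change 0.46 ± 0.16). Without pairs 6, 7 and 8, whose TdTomato+ libraries held much lung epithelium and leukocyte RNA, the log2 fold change was 0.70.

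**Figure D1:**
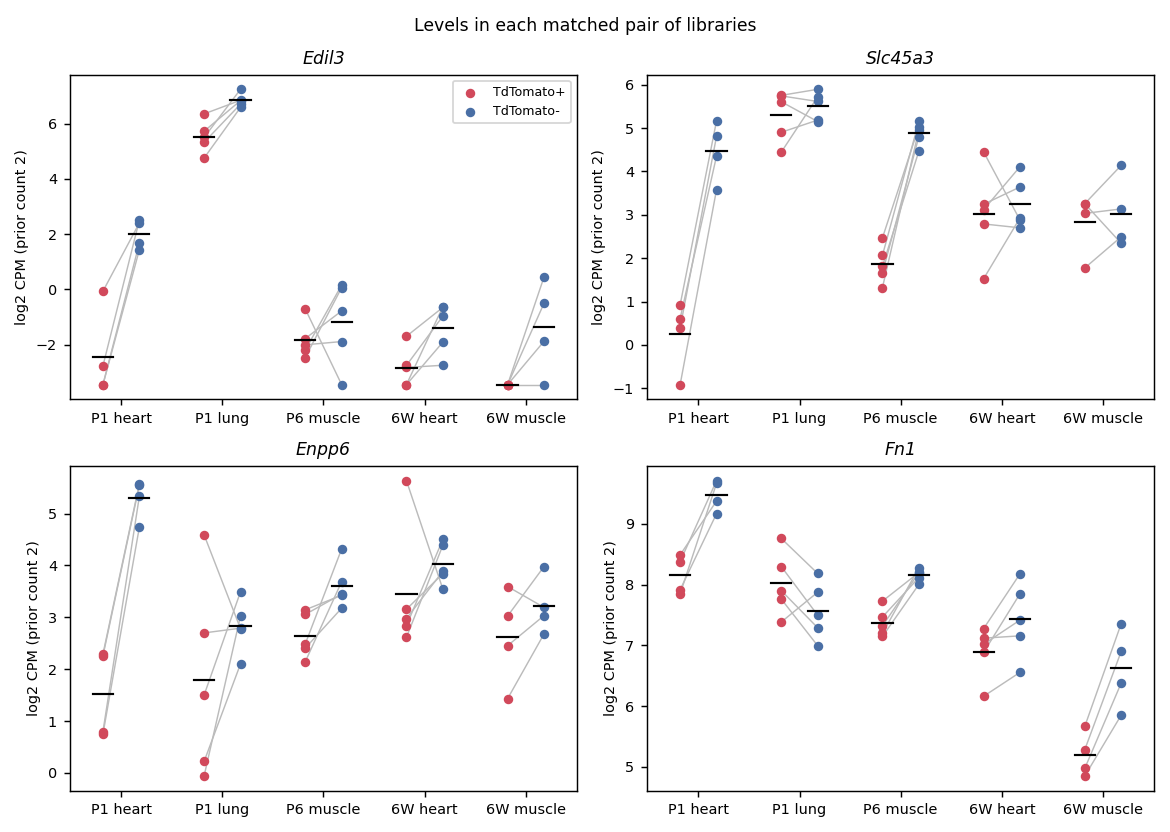
Level of each gene as log2 CPM in every library of the 5 tissue and age combinations, with TdTomato+ libraries on the left, TdTomato- libraries on the right, grey lines joining pairs and black bars at the means of the log2 values. Edil3 is high only in P1 lung, and the lines of Fn1 slope downwards from TdTomato+ to TdTomato- in 4 of 5 pairs of P1 lung but upwards in all pairs of the other combinations.

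Slc45a3 (mm10 chromosome 1, 131962915 to 131982972, plus strand, 6 exon intervals) and Enpp6 (mm10 chromosome 8, 46986925 to 47094895, plus strand, 8 exon intervals) were both far lower in TdTomato+ cells of P1 heart. So was Edil3 (log2 fold change -4.37), but only Slc45a3 and Enpp6 had a promoter window to show. RefSeq promoter windows on GRCm38.p6, the assembly that mm10 displays, matched 2 of the 4 genes. The 250 bases before the first listed start of Slc45a3 (chr1:131962665-131962914, plus strand) and before that of Enpp6 (chr8:46986637-46986886, plus strand) follow, with GGAA, the core of the sites of ETS factors, in capitals on either strand, so that TTCC marks a match on the other strand.
Slc45a3: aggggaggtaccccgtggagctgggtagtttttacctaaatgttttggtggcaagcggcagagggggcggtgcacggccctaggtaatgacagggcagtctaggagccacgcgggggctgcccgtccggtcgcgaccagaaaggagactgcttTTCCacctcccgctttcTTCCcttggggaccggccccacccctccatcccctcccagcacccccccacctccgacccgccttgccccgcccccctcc
Enpp6: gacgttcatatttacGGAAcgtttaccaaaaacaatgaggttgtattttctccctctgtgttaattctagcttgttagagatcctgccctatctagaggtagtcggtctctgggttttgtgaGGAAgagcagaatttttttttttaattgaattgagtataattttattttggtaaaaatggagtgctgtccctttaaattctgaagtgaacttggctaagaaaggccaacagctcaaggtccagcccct
Each window held 2 matches, which do not overlap, and 93.4% of all 32851 windows of that length held a match. GGGCGG, the box of KLF and SP factors, had 2 matches in the Slc45a3 window and no match in the Enpp6 window, against 32.7% of all windows with a match. AGATAA, the letters of GATA factors, had no match in either window and a match in 9.99% of all windows. A match is a description of the letters and not of binding.

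In P1 heart Slc45a3 stood at 0.438, 1.22, 1.43 and 1.81 CPM in TdTomato+ cells, against 11.9, 28.05, 20.4 and 35.9 CPM in TdTomato- cells. The TdTomato+ level was 19.8-fold below the TdTomato- level (fitted log2 fold change -4.31 ± 0.41, SE, n = 4 pairs), and no values overlapped. P6 muscle showed the same separation, with 4.1, 2.41, 3.42, 3.07 and 5.45 CPM in TdTomato+ cells and 35.5, 30.9, 22.07, 27.9 and 32.6 CPM in TdTomato- cells. The fitted difference there was 8.21-fold (log2 fold change -3.04 ± 0.33, n = 5 pairs).

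In the other 3 combinations Slc45a3 levels overlapped between the fractions and single pairs differed in sign. In P1 lung they were 53.9, 21.7, 48.7, 29.8 and 53.5 CPM in TdTomato+ cells, against 59.4, 52.7, 35.4, 36.3 and 48.9 CPM in TdTomato- cells, lower in 3 of 5 pairs. In 6W heart they were 2.79, 21.8, 9.38, 8.59 and 6.83 CPM in TdTomato+ and 7.54, 7.26, 12.4, 17.2 and 6.41 CPM in TdTomato- cells. The TdTomato+ library of pair 2 was the highest of that combination.

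In 6W muscle Slc45a3 stood at 3.33, 8.1, 9.48 and 9.48 CPM in TdTomato+ and 5.54, 8.71, 4.98 and 17.6 CPM in TdTomato- cells. The fitted log2 fold changes were -0.22 ± 0.30 in P1 lung, -0.23 ± 0.32 in 6W heart and -0.21 ± 0.36 in 6W muscle. Each turned to a value above 0 without 1 pair: 0.04 without pair 5 of P1 lung, 0.06 without pair 1 of 6W heart and 0.05 without pair 5 of 6W muscle. With RNA integrity as a covariate the value in 6W muscle was -0.88.

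Enpp6 in P1 heart stood at 1.59, 4.68, 4.80 and 1.64 CPM in TdTomato+ cells, against 26.6, 46.7, 47.4 and 40.2 CPM in TdTomato- cells. The difference was 13.9-fold (log2 fold change -3.79 ± 0.62, SE, n = 4 pairs), without overlap. In P6 muscle the levels were 8.75, 5.20, 4.33, 5.51 and 8.22 CPM in TdTomato+ and 10.6, 8.95, 12.8, 19.9 and 10.8 CPM in TdTomato- cells, apart by a narrow margin (log2 fold change -0.97 ± 0.51).

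In P1 lung Enpp6 varied widely among TdTomato+ libraries, with 6.4, 24.0, 1.07, 0.868 and 2.74 CPM, against 6.83, 6.78, 4.20, 8.06 and 11.2 CPM in TdTomato- cells. The difference in pair 5 was 1.81 on the log2 scale, higher in TdTomato+ cells, and the 3 TdTomato+ libraries rich in lung epithelium RNA were the lowest. The log2 fold change of -1.07 ± 0.58 was 0.89 without pairs 6, 7 and 8 and -1.78 without pair 5. In a fit without the replicate block, which does not use the pair numbers, it was -0.077. In 6W heart the levels were 7.78, 49.6, 7.06, 8.81 and 6.03 CPM in TdTomato+ and 14.7, 11.6, 22.6, 14.2 and 20.8 CPM in TdTomato- cells. Pair 2 again stood apart, and without it the log2 fold change of -0.68 ± 0.54 was -1.27, while the fit without the replicate block gave -0.078. In 6W muscle they were 2.60, 5.38, 12.0 and 8.04 CPM in TdTomato+ and 6.31, 8.09, 9.04 and 15.7 CPM in TdTomato- cells, with overlap (log2 fold change -0.59 ± 0.57).

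**Figure D2:**
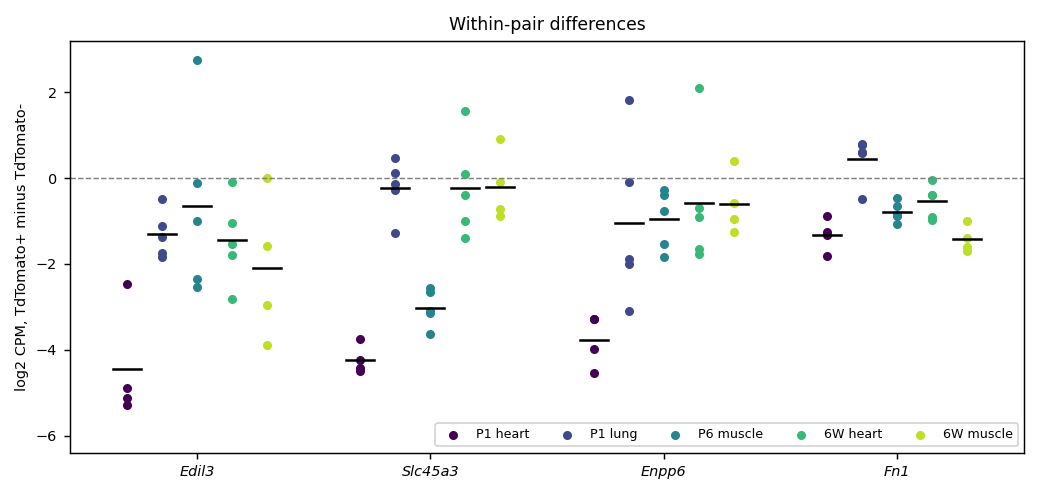
Difference between the TdTomato+ and the TdTomato- library of each pair in log2 CPM, by gene and coloured by tissue and age combination, with black bars at the means and a dashed line at no difference. P1 heart pairs are the lowest group of Slc45a3 and Enpp6, with means of -4.23 and -3.77, and Fn1 in P1 lung has a mean of 0.45.

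Of the 15557 genes in the model, 773 had fitted fold changes below 1 in all 5 combinations, which is 4.97%. Edil3, Slc45a3 and Enpp6 were among them and Fn1 was not. Lower levels in at least 21 pairs, the number of Edil3, were found for 20 genes, in at least 20 pairs for 63 genes, in at least 19 for 180 and in at least 18 for 449. The number of Edil3 includes its pairs of equal raw counts, so its place in this order rests in part on scaling. The 1 gene lower in every pair was Lrpap1, named here after its values were seen, with a median within-pair difference of -0.13 on the log2 scale.

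Markers of other endothelial types were measured beside these values. In P1 heart, 11 of 12 endocardial markers were lower in TdTomato+ cells by the quasi-likelihood test of edgeR (Benjamini-Hochberg adjusted p below 0.05), against 7.21% of all genes tested, and their median log2 fold change was -3.31 against -0.04 for all genes. Their summed level was 411 to 521 CPM in TdTomato+ and 1029 to 1673 CPM in TdTomato- cells, with none of the 12 at 0. Of 9 measured lymphatic markers, 6 were lower, and their sums were 279 to 359 CPM in TdTomato+ and 362 to 543 CPM in TdTomato- cells. Of 16 fibroblast markers, 8 were lower and 1 higher, at 99.5 to 449 CPM in TdTomato+ and 673 to 1060 CPM in TdTomato- cells, and 1 of the 16, Fap, was at 0 in TdTomato- cells. In these bulk libraries fewer cells of a type and less RNA per cell cannot be told apart, and the part of these cell types in the 4 genes was not tested.

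In P6 muscle, where Slc45a3 was low in TdTomato+ cells, 4 of 9 lymphatic markers were lower, against 0.354% of all genes, and the list summed to 223 to 302 CPM in TdTomato+ and 408 to 554 CPM in TdTomato- cells. The endocardial list there summed to 1643 to 1787 CPM in TdTomato+ and 988 to 1286 CPM in TdTomato- cells. Of its 12 genes 1 was called higher, against 0.624% of all genes, and 1 was at 0 in TdTomato+ cells. Their median log2 fold change was 0.03. Vwf and Plvap are also in the venous list, which summed to 2719 to 2945 CPM in TdTomato+ and 1752 to 2119 CPM in TdTomato- cells. In P1 lung, where Fn1 was higher in TdTomato+ cells, fibroblast markers summed to 465 to 3005 CPM in TdTomato+ and 301 to 885 CPM in TdTomato- cells. Fn1 and that sum did not move together in every pair: in pair 1 Fn1 was higher and the fibroblast sum lower in TdTomato+ cells, at 502 against 797 CPM.

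In 6W heart, Fn1 was lower and the fibroblast sum was higher in TdTomato+ cells in all 5 pairs. That sum was 388 to 1443 CPM in TdTomato+ and 215 to 385 CPM in TdTomato- cells, and its part in Fn1 was not tested. Pericyte and smooth muscle markers were higher in sum in 4 of those 5 pairs. Their sums were 535 to 2089 CPM in TdTomato+ and 344 to 638 CPM in TdTomato- cells. Of these 12 markers 4 were called higher, as were 3 of 16 fibroblast markers, against 0.598% of all genes. Arterial markers were lower in sum in every pair of P6 muscle, 6W heart and 6W muscle, at 2197 to 3068 CPM in TdTomato+ and 2966 to 4016 CPM in TdTomato- cells of 6W muscle. Glial markers, measured because Enpp6 is known from oligodendrocytes, summed to 1.48 to 16.4 CPM in TdTomato+ and 18.4 to 31.9 CPM in TdTomato- cells of P1 heart, where 4 of 9 were at 0 in the TdTomato+ and 3 in the TdTomato- group.

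**Figure D3:**
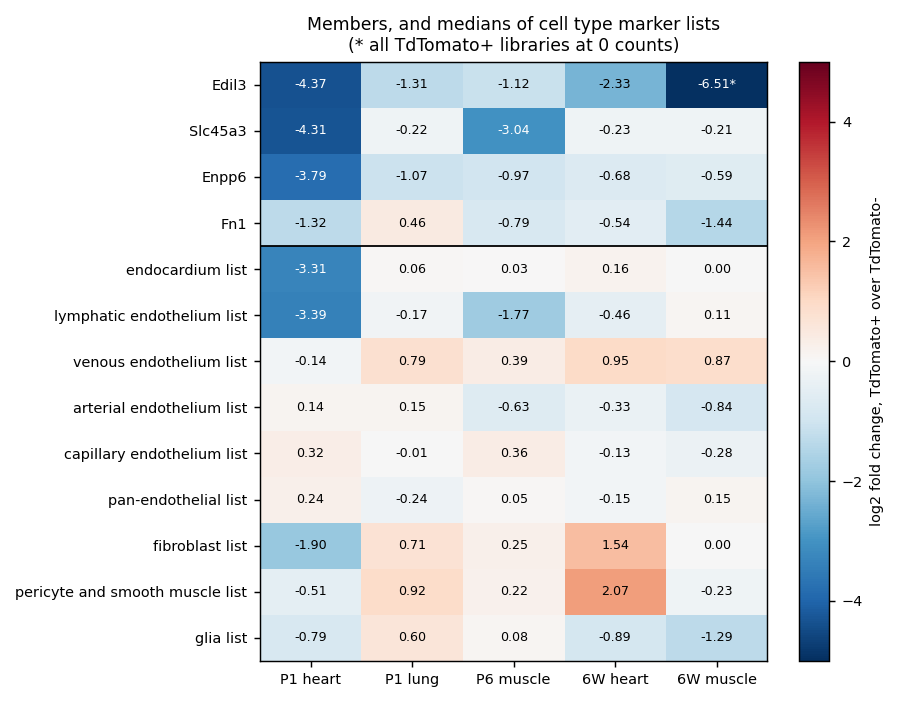
Log2 fold change of TdTomato+ over TdTomato- cells for the 4 genes (above the line) and the median over each marker list (below it) in the 5 tissue and age combinations; the value with a star rests on 0 counts in the TdTomato+ group and is not a measure of size. Edil3, Slc45a3, Enpp6, the endocardium list and the lymphatic list all stand between -3.31 and -4.37 in P1 heart.

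Levels within 1 fraction were compared between ages and tissues, over the 23 libraries of that fraction, with the quasi-likelihood test of edgeR and p-values adjusted by Benjamini-Hochberg over all genes tested. Each level is also 1 side of the within-pair differences that chose the genes, and contrasts that use the same group share its libraries. The choice favoured genes with low TdTomato+ and high TdTomato- levels, and these p-values are not adjusted for that. Opposite age changes in the fractions of heart are therefore not independent of the choice. Between 6W and P1 heart, 3 of the 4 genes passed in TdTomato+ cells, where 43.0% of all genes tested did, and 4 of 4 in TdTomato- cells, where 49.3% did.

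With age in the heart, Slc45a3 went in opposite directions in the fractions. In TdTomato+ cells it averaged 9.87 ± 7.12 CPM at 6W and 1.23 ± 0.577 CPM at P1 (SD, n = 5 and 4), a 7.98-fold rise with adjusted p = 5.27e-05 (edgeR). In TdTomato- cells it averaged 10.2 ± 4.58 CPM at 6W and 24.06 ± 10.3 CPM at P1, a 2.37-fold fall with adjusted p = 0.00411. The ranges of the 2 ages were apart in TdTomato+ cells and overlapped in TdTomato- cells.

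Enpp6 followed the same course. In TdTomato+ cells it averaged 15.9 ± 18.9 CPM in 6W and 3.18 ± 1.80 CPM in P1 heart (SD, n = 5 and 4), with a log2 fold change of 2.32 ± 0.84 and adjusted p = 0.0291 in edgeR. Without the TdTomato+ library of 6W heart pair 2 the log2 fold change was 1.23 with adjusted p = 0.194, and without that of P1 heart pair 2 or 5 the adjusted p was 0.0812 and 0.0715. In TdTomato- cells it averaged 16.8 ± 4.69 CPM in 6W and 40.2 ± 9.67 CPM in P1 heart, a 2.40-fold fall with adjusted p = 0.00078 in edgeR. With all 46 libraries in 1 fit that adjusted p was 0.0835 at nearly the same size. The age ranges did not overlap in either fraction. The difference between the fractions in these age changes was not tested, since it is the contrast that the choice of genes rests on.

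Fn1 fell with age in the heart in both fractions. In TdTomato+ cells it averaged 123 ± 31.5 CPM at 6W and 291 ± 64.7 CPM at P1, with a log2 fold change of -1.24 ± 0.24 and adjusted p = 0.000235. In TdTomato- cells the averages were 186 ± 76.3 CPM at 6W and 722 ± 125 CPM at P1, with a log2 fold change of -1.96 ± 0.28 and adjusted p = 4.04e-06 in edgeR. Edil3 fell 11.2-fold in TdTomato- cells, to 0.350 ± 0.224 CPM at 6W against 4.12 ± 1.49 CPM at P1 (adjusted p = 2.25e-05, edgeR). In TdTomato+ cells its log2 fold change of -1.72 ± 1.06 had adjusted p = 0.201 in edgeR, on 7 counts at 6W and 22 at P1. The 3 heart pairs of 6W that share the sequencing run of P1 heart gave the same calls. In TdTomato+ cells the log2 fold changes were 3.2 for Slc45a3, 2.77 for Enpp6 and -1.40 for Fn1. In TdTomato- cells they were -1.41, -1.31, -2.21 and -3.34 for Slc45a3, Enpp6, Fn1 and Edil3. Of these pairs, pair 2 held 49.6 CPM of Enpp6 in TdTomato+ cells, against 7.78 and 7.06 CPM in pairs 1 and 4. Pair 2 therefore weighs more in the Enpp6 value of 2.77 than in the fit of all pairs.

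In muscle, 2 of 4 genes passed between 6W and P6 in TdTomato+ cells, against 34.0% of all genes, and 2 of 4 in TdTomato- cells, against 42.5%. The libraries of 6W and P6 muscle are of different sequencing runs, so that age and run cannot be told apart. Fn1 averaged 37.4 ± 9.85 CPM in 6W and 167 ± 28.4 CPM in P6 muscle in TdTomato+ cells, a 4.47-fold fall with adjusted p = 1.12e-06 (edgeR, n = 4 and 5). In TdTomato- cells it averaged 106 ± 46.2 CPM at 6W and 286 ± 20.3 CPM at P6, a 2.70-fold fall with adjusted p = 0.000344 (edgeR). The ages did not overlap in either fraction.

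Slc45a3 fell in TdTomato- cells of muscle, to 9.20 ± 5.81 CPM at 6W against 29.8 ± 5.13 CPM at P6 (log2 fold change -1.70 ± 0.36, adjusted p = 0.000509, edgeR). In TdTomato+ cells it averaged 7.60 ± 2.92 CPM at 6W and 3.69 ± 1.16 CPM at P6, and the log2 fold change of 1.04 ± 0.45 had adjusted p = 0.0772 in edgeR. Enpp6 averaged 7.00 ± 3.99 and 6.4 ± 1.96 CPM in TdTomato+ cells at 6W and P6, and 9.78 ± 4.09 and 12.6 ± 4.28 CPM in TdTomato- cells at 6W and P6. Neither difference passed (adjusted p = 0.919 and 0.33, edgeR). Edil3 in TdTomato+ cells had 0 counts at 6W and 25 at P6, at least 5.85-fold lower at 6W. The adjusted p of 0.0349 in edgeR became 0.0609 to 0.076 without any 1 of the 4 libraries of 6W or without that of P6 muscle pair 2.

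**Figure D4:**
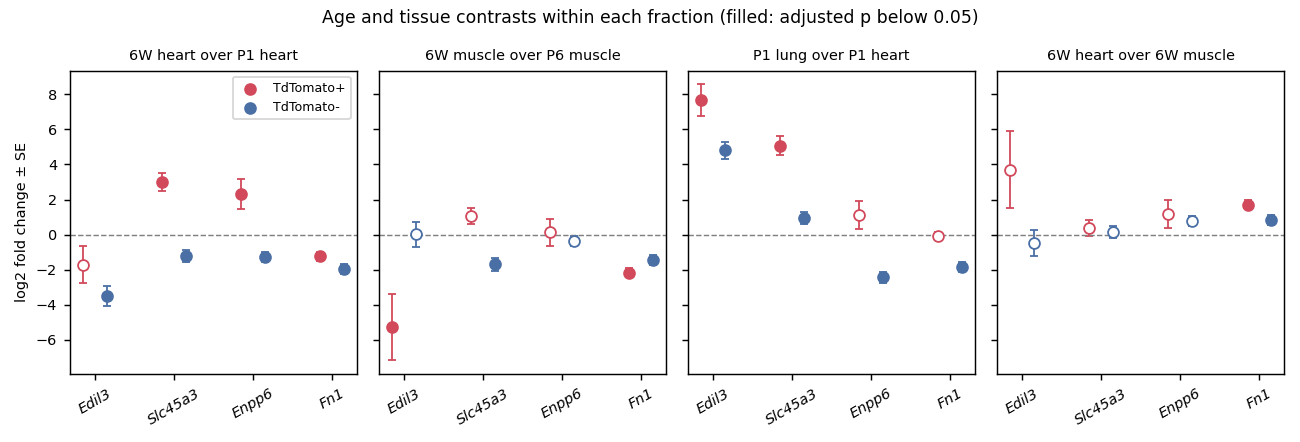
Log2 fold change with its SE for the 4 genes in 4 contrasts of age or tissue, within TdTomato+ cells on the left and TdTomato- cells on the right of each gene, filled where the adjusted p is below 0.05. Slc45a3 and Enpp6 lie above 0 in TdTomato+ and below 0 in TdTomato- cells between 6W and P1 heart; Edil3 values that involve TdTomato+ cells of 6W muscle rest on 0 counts there and are not a measure of size.

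Between newborn lung and heart, 2 of 4 genes passed in TdTomato+ cells, against 34.5% of all genes, and 4 of 4 in TdTomato- cells, against 36.9%. The run sheets put P1 heart in batch 1 and P1 lung in batch 2, so that tissue and batch cannot be told apart. Edil3 was 201-fold higher in lung in TdTomato+ cells (49.2 ± 20.4 CPM in P1 lung and 0.229 ± 0.423 CPM in P1 heart, adjusted p = 2.92e-06, edgeR, on 22 counts in P1 heart) and 28.11-fold higher in TdTomato- cells (116 ± 21.14 and 4.12 ± 1.49 CPM, adjusted p = 4.41e-08, edgeR). Without the TdTomato+ library of P1 heart pair 5 the log2 fold change of 7.65 in TdTomato+ cells was 11.17.

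Slc45a3 was higher in lung by a log2 fold change of 5.07 ± 0.55 in TdTomato+ cells, at 41.5 ± 14.8 CPM in P1 lung and 1.23 ± 0.577 CPM in P1 heart (adjusted p = 4.15e-07, edgeR). In TdTomato- cells the levels were 46.5 ± 10.5 CPM in P1 lung and 24.06 ± 10.3 CPM in P1 heart, and the log2 fold change of 0.95 ± 0.34 had adjusted p = 0.0318 in edgeR. That call was lost without any 1 of 5 of the 9 libraries, namely lung pairs 1, 5 and 8 and heart pairs 2 and 4 (adjusted p from 0.0505 to 0.119 without these), and with all 46 libraries in 1 fit (0.0688). Enpp6 and Fn1 went the other way in TdTomato- cells, with log2 fold changes of -2.44 ± 0.29 and -1.87 ± 0.28 (adjusted p = 5.78e-07 and 1.39e-05, edgeR). In TdTomato+ cells Enpp6 averaged 7.01 ± 9.74 CPM in P1 lung and 3.18 ± 1.80 CPM in P1 heart, and Fn1 274 ± 104 and 291 ± 64.7 CPM. Neither passed the test (adjusted p = 0.287 and 0.819, edgeR), but without lung libraries 6, 7 and 8 Enpp6 had a log2 fold change of 2.26 with adjusted p = 0.0441.

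Between heart and muscle at 6 weeks, 1 of 4 genes was called higher in TdTomato+ cells, as were 7.47% of all genes, and 1 of 4 in TdTomato- cells, as were 10.5%. Both calls were of Fn1. It was 3.28-fold higher in heart in TdTomato+ cells (123 ± 31.5 CPM in 6W heart and 37.4 ± 9.85 CPM in 6W muscle, adjusted p = 7.39e-05, edgeR, n = 5 and 4), without overlap. In TdTomato- cells it averaged 186 ± 76.3 CPM in 6W heart and 106 ± 46.2 CPM in 6W muscle (log2 fold change 0.81 ± 0.29, adjusted p = 0.0456, edgeR), with overlap. The call in TdTomato- cells was lost without any 1 of heart pairs 4, 5 and 6 and muscle pairs 2, 4 and 5 (adjusted p from 0.056 to 0.159), without both heart pairs 5 and 6 (0.211) and with a replicate block by number (0.0737). Against muscle, the 2 heart pairs of the same sequencing run gave log2 fold changes of Fn1 of 1.93 in TdTomato+ and 1.13 in TdTomato- cells.

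Ordered by mean level, Edil3 in TdTomato+ cells ran from P1 lung through P1 heart, P6 muscle and 6W heart to 6W muscle, and only the step from P1 lung to P1 heart had ranges apart. In TdTomato- cells both P1 lung against P1 heart and P1 heart against P6 muscle were apart. Slc45a3 was highest in P1 lung in both fractions, and its lowest group was P1 heart in TdTomato+ but 6W muscle in TdTomato- cells. Enpp6 was highest in P1 heart in TdTomato- cells, apart from the next group, and lowest in P1 heart in TdTomato+ cells, where all neighbours overlapped. Fn1 was highest in P1 heart and lowest in 6W muscle in both fractions, with ranges of 6W muscle apart from those of 6W heart in TdTomato+ but not in TdTomato- cells.

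Genes of the same pathways were counted in the fraction contrasts with the same model. Of 30 matrix partners of fibronectin, 16 were lower and 1 higher in TdTomato+ cells of P1 heart, where 7.21% of all genes were called lower and 7.51% higher. Postn, which encodes the matrix protein periostin, fell by 4.85 on the log2 scale (SE 0.71, adjusted p = 7.61e-05, edgeR), and Mfap2, of elastic microfibrils, fell by 1.16 (SE 0.12). Sparc, a collagen-binding glycoprotein, was the 1 that rose (log2 fold change 0.50 ± 0.08). The median of the list was -1.15 against -0.04 for all genes. Postn, Mfap5, Fbln1, Loxl1 and the fibrillar collagens of this list are also in the fibroblast list, whose sums are given above.

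In the other combinations the matrix list split. In P1 lung 4 of 30 rose, among them the perlecan gene Hspg2 (log2 fold change 1.88 ± 0.24) and the fibrillin gene Fbn1 (0.79 ± 0.17), and 2 fell, where 4.88% of all genes rose and 4.90% fell. In P6 muscle 1 rose and 2 fell, against 0.624% and 0.354% of all genes; the crosslinking enzyme gene Lox fell by 1.48 and the elastic fibre gene Fbln5 by 0.77 on the log2 scale. In 6W heart 3 rose and 1 fell, against 0.598% and 0.276% of all genes: Postn rose by a log2 fold change of 2.71 ± 0.57, and Fbln5 fell by 1.05. The fibroblast and the pericyte and smooth muscle sums, given above, were also higher in TdTomato+ cells there, and their part in these calls was not tested. The 6W heart count was 0 without pair 4, 1 without pair 2 and 2 without pair 1, and that of P6 muscle was 0 without pair 3 or 4 and in the fit without the replicate block. In 6W muscle 2 rose and 2 fell, against 1.70% and 3.53% of all genes; Mfap2 rose by 1.11 ± 0.12 on the log2 scale, while Fbln5, which is also in the arterial list, fell by 1.84 on the log2 scale and Lox fell by 1.78.

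Among 26 integrin chains, adaptors and other receptors of fibronectin and Edil3, 3 rose and 5 fell in P1 heart, against 7.51% and 7.21% of all genes. The adaptor genes Fermt2, Tln1 and Tns1 rose by log2 fold changes of 0.29 ± 0.07, 0.34 ± 0.09 and 0.42 ± 0.13. The integrin chain gene Itgb5, whose product pairs with alpha-v, fell by 0.94 on the log2 scale (SE 0.26), and Sdc2, a membrane heparan sulphate proteoglycan, fell by 1.99 (SE 0.62), but 3 of 26 were called without pair 4 and 4 without pair 2 or 3. In P1 lung 2 rose and 8 fell, against 4.88% and 4.90% of all genes, with Itgb5 down by 1.51 (SE 0.20) and the laminin-binding integrin gene Itga3 by 0.77, but 1 of 26 was called without pairs 6, 7 and 8. In P6 muscle the 1 call was Cd44, a hyaluronan receptor, which fell by 0.84 (SE 0.11), where 0.354% of all genes fell. In 6W heart, where no call was left without any 1 of pairs 1, 2 and 6, the adaptor gene Tns3 rose by a log2 fold change of 0.66 ± 0.15, against 0.598% of all genes called higher. In 6W muscle, where 1.70% of all genes rose, Itga3, Pxn and Tln2 rose by 0.62, 0.33 and 0.54 on the log2 scale, with 0 calls left without pair 4 and 1 without pair 2 or 3. Without the replicate block, 3 of the 26 were called in P1 heart, 5 in P1 lung and 0 in 6W heart and in 6W muscle.

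Of 27 genes of choline phospholipid turnover, 5 fell and 1 rose in P1 heart, against 7.21% and 7.51% of all genes. In P1 lung 1 fell and 2 rose, near the 4.90% and 4.88% of all genes, and in P6 muscle 1 rose, where 0.624% of all genes did. The P1 heart count was 1 to 3 without any 1 of pairs 2, 3 and 4 and 3 without the replicate block, and the P1 lung count was 0 without any 1 of pairs 6, 7 and 8. By edgeR no gene of the list was called in 6W heart or 6W muscle, where the unadjusted p of 4 and 1 was below 0.05 and DESeq2 made 2 and 0 calls. Enpp2, the lysophospholipase D autotaxin and a relative of Enpp6, fell by 2.42 in P1 heart (SE 0.31) and rose by a log2 fold change of 1.33 ± 0.25 in P6 muscle. Of the 6 measured relatives in the Enpp and Slc45 families, 2 fell in P1 heart. Slc45a4, a relative of Slc45a3, fell by 1.22 in P1 heart, 1.33 in P6 muscle and 1.70 in 6W muscle and rose by 0.77 ± 0.23 in P1 lung. Enpp3, an ectonucleotidase, rose by 1.84 ± 0.22 in P1 lung, where no other relative but Slc45a4 was called.

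The genes most like each of the 4 were named by Pearson correlation across 10350 named genes with a mean of at least 5 CPM. The points share tissue, age and library, so these values are descriptions. Over the 46 libraries the level of Edil3 was closest to those of Tmem100 (r = 0.95), Wls (0.93) and Glp1r (0.93). Slc45a3 was closest to Fgl2 (0.90), the lymphatic receptor gene Lyve1 (0.87) and Pard6g (0.86). Enpp6 was closest to Comp (0.72) and Kcnc2 (0.68), and Fn1 to Frmd4b (0.88), the thrombin receptor gene F2r (0.86) and Col18a1 (0.85).

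By the within-pair difference over 23 pairs, Slc45a3 was closest to Mmrn1 (r = 0.93), Pdlim4 (0.91) and Fgl2 (0.90). Mmrn1, a gene of lymphatic endothelium, averaged 0.446 CPM in TdTomato+ and 22.8 CPM in TdTomato- cells of P1 heart, and 15.7 and 104 CPM in P6 muscle. Enpp6 was closest to Vwf (0.86), the clotting protein of larger vessels, and Rnf141 (0.86). Fn1 was closest to Stc1 (0.86), Slc45a4 (0.85) and Nudt4 (0.83), and Edil3 to Epha7 (0.76), Cd248 (0.73) and the histamine-synthesis gene Hdc (0.73). These correlations leave out the mean difference, so a close gene need not be lower in TdTomato+ cells. Epha7, Cd248 and Hdc averaged 9.82, 21.9 and 28.7 CPM in TdTomato+ and 3.27, 10.4 and 19.5 CPM in TdTomato- cells of P1 lung. Edil3 was lower in every pair there. Vwf averaged 348 and 570 CPM in TdTomato+ cells of adult heart and muscle, against 179 and 272 CPM in TdTomato- cells. In P1 heart all of these genes averaged lower in TdTomato+ cells. Among the 4 genes themselves, correlations of the within-pair differences ran from 0.25 for Edil3 with Slc45a3 to 0.57 for Slc45a3 with Enpp6.

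**Figure D5:**
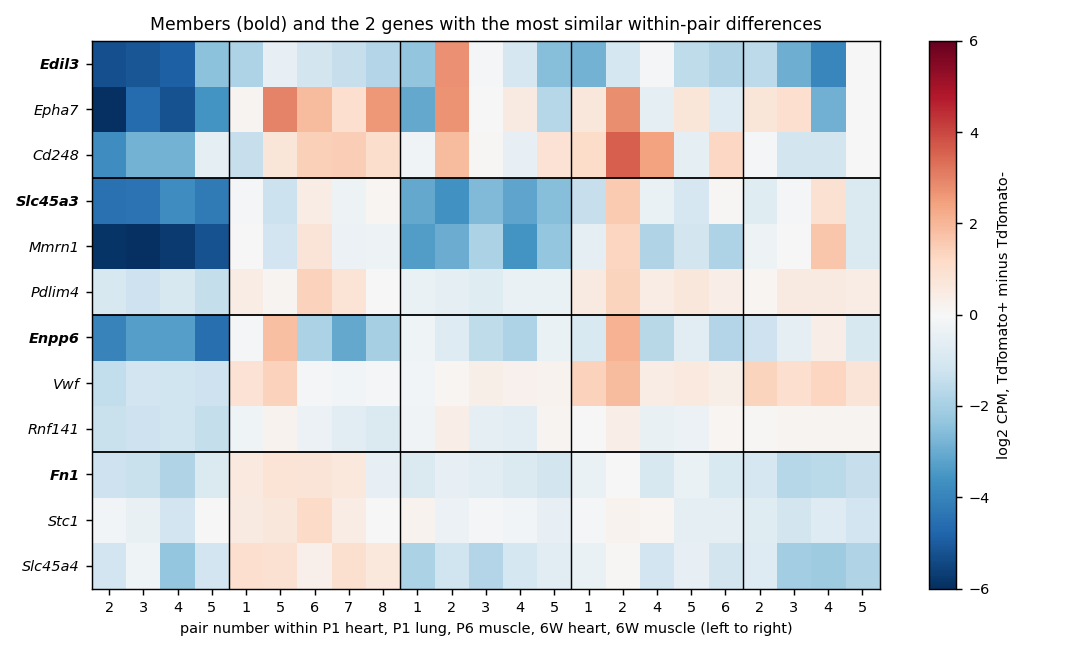
Within-pair difference in log2 CPM (colour; TdTomato+ minus TdTomato-) of the 4 genes in bold and, under each, the 2 genes with the highest correlation to it, for the 23 pairs grouped by tissue and age. Mmrn1 is blue in the P1 heart and P6 muscle pairs where Slc45a3 is blue.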

How the data were processed

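Groups and pair numbers come from the source names in the labels. The deposited table holds raw counts of reads per gene for 48 libraries. STAR, featureCounts and mm10 are named in the submitters' processing notes, with no version. RNA integrity scores come from the deposited run sheets, per the file headers, and 2 run sheet rows of other samples were not used. The labels name poly(A) selection with an RNA capture kit, while the run sheets name a low-input cDNA kit. No source used here says how strand was treated in counting, so overlapping and antisense genes are uncertain.

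P1 heart pair 1 was left out because its TdTomato+ library is recorded as failing quality control. The 46 libraries were scaled by TMM in edgeR 4.0.16 (R 4.3.3). filterByExpr removed 12 genes and kept 15557, all 4 members among them. Fractions were compared with a replicate block for each pair, and TdTomato+ had its own effect in each combination. Age and tissue were compared within a fraction over 23 libraries without a block, on 14966 genes in TdTomato+ and 14802 in TdTomato- cells. Calls have an adjusted p (Benjamini-Hochberg) below 0.05. SE is the absolute log2 fold change over the square root of F, and log2 CPM used a prior count of 2. The scripts were tested on simulated data.

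Libraries of 1 tissue, age and number were taken as pairs, which the labels number alike but do not call matched. Deviations of partners from their group means over 10694 genes correlated at -0.01 to 0.56 (median 0.28), above 0.1 in 21 of 23 pairs. Any pair of replicates had a chi-square of 14.7 or more per degree of freedom. Since separate animals are not stated, the p-values rest on differences among these libraries, which may be technical. The members and all gene lists were chosen with earlier results of these data known. Named genes were the members, Abcg2, the 3 most correlated genes by level and by pair difference, and up to 3 called genes of each pathway list per direction with the smallest p at 5 CPM or more. Of the genes this rule named, 1 is not reported here. Alternatives were DESeq2 1.42.0, other scalings and filters, RNA integrity as a covariate, other blocks, single runs, and leaving out pairs or libraries.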

Additional observations from a re-analysis of the deposited data

Results flagged for a closer look

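Of 40 groups of levels and 20 groups of within-pair differences, 5 held a sample far from the others; chance gives about 1 in 20 groups. The TdTomato+ library of 6W heart pair 2 held 49.6 CPM of Enpp6, and its within-pair difference of 2.09 on the log2 scale stood apart too. That library also had the highest fibroblast marker sum of 6W heart, 1443 CPM against 279 CPM in its TdTomato- partner. Its sums of endocardial markers, at 1401 against 498 CPM, and of pericyte and smooth muscle markers, at 2089 against 344 CPM, were the highest of 6W heart as well. The endocardial list shares Vwf and Plvap with the venous list, whose sum was 2538 against 1357 CPM in that pair. The part of all these cells was not tested. In P1 heart the Edil3 difference of pair 5, -2.47, was the smallest in size. The Fn1 difference of P1 lung pair 8, -0.49, was the only negative one of that combination. The TdTomato+ library of 6W muscle pair 2 was low in Slc45a3, at 3.33 CPM.

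Enpp6 differed in its age change between the fractions of heart, with a log2 fold change of 2.32 in TdTomato+ and -1.26 in TdTomato- cells for 6W over P1. No library of 1 age overlapped the other age in either fraction, and the difference between the fractions was not tested. In the P1 heart pair left out of the models, Enpp6 stood at 182 CPM in the TdTomato+ library, above the 43.5 CPM of its partner and above every TdTomato- library of P1 heart.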

How the results depend on the processing

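Of 221 alternative values for the differences between fractions, 209 kept their direction and moved by less than the spread between pairs, 8 moved by more than the spread and 4 changed sign. Of the 209, 10 still moved by over 1.5 times. Edil3 in P1 heart was -5.58 with each combination fitted alone and -5.13 with pair 1 included, Edil3 in 6W muscle, which rests on 0 TdTomato+ counts, was -5.41 with RNA integrity as a covariate and -5.55 without pair 4, and the other 6 stand beside their genes in the results. Of 536 for age and tissue, 478 kept direction and call, 25 lost the call, 8 gained one and 25 changed sign, and of 200 counts of called list genes 69 moved by over 1.5 times. The causes were not tested. The alternatives that leave out P1 lung pairs 6, 7 and 8 or 6W heart pairs 5 and 6 were chosen after seeing the data.

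With DESeq2, the log2 fold change was -0.023 for Edil3 6W muscle over P6 muscle in TdTomato- and 0.77 for Enpp6 6W heart over 6W muscle in TdTomato- (adjusted p = 0.0449). With DESeq2 and the replicate block, the log2 fold change was -6.13 for Edil3 in P1 heart and -4.73 for Edil3 in 6W muscle. With the P1 heart libraries numbered 1 included, the log2 fold change was -2.04 for Enpp6 6W heart over P1 heart in TdTomato+, -0.94 for Fn1 6W heart over P1 heart in TdTomato+ (adjusted p = 0.236), -3.24 for Enpp6 P1 lung over P1 heart in TdTomato+, 0.21 for Fn1 P1 lung over P1 heart in TdTomato+ and 0.61 for Slc45a3 P1 lung over P1 heart in TdTomato- (adjusted p = 0.17). With P1 heart pair 1 included, the log2 fold change was -4.90 for Slc45a3 in P1 heart, -3.05 for Enpp6 in P1 heart and -2.03 for Fn1 in P1 heart. With RNA integrity as a covariate, the log2 fold change was -4.89 for Slc45a3 in P1 heart and -1.13 for Fn1 in 6W muscle. With all 46 libraries in 1 fit, the log2 fold change was 1.04 for Slc45a3 6W muscle over P6 muscle in TdTomato+ (adjusted p = 0.0438), -1.26 for Enpp6 6W heart over P1 heart in TdTomato- (adjusted p = 0.0835) and 0.95 for Slc45a3 P1 lung over P1 heart in TdTomato- (adjusted p = 0.0688). With a replicate block by number, the log2 fold change was -0.065 for Enpp6 6W muscle over P6 muscle in TdTomato+, 0.26 for Fn1 P1 lung over P1 heart in TdTomato+, 0.80 for Enpp6 6W heart over 6W muscle in TdTomato- (adjusted p = 0.0442) and 0.90 for Fn1 6W heart over 6W muscle in TdTomato- (adjusted p = 0.0737). With total counts in place of TMM, the log2 fold change was -0.11 for Edil3 6W muscle over P6 muscle in TdTomato- and 0.82 for Enpp6 6W heart over 6W muscle in TdTomato- (adjusted p = 0.0481). Without 6W heart libraries 5 and 6, the log2 fold change was -0.022 for Slc45a3 6W heart over 6W muscle in TdTomato- and 0.55 for Fn1 6W heart over 6W muscle in TdTomato- (adjusted p = 0.211). Without P1 lung libraries 6, 7 and 8, the log2 fold change was 2.26 for Enpp6 P1 lung over P1 heart in TdTomato+ (adjusted p = 0.0441) and 0.36 for Fn1 P1 lung over P1 heart in TdTomato+. Without P1 lung pairs 6, 7 and 8, the log2 fold change was 0.89 for Enpp6 in P1 lung. With DESeq2 and the replicate block, the number of calls was 4 for relatives in P1 heart, 4 for receptors in 6W heart, 10 for matrix partners in 6W heart, 2 for choline genes in 6W heart and 7 for matrix partners in 6W muscle. With P1 heart pair 1 included, the number of calls was 5 for receptors in P1 heart, 1 for choline genes in P1 heart, 0 for relatives in P1 heart, 0 for receptors in P1 lung, 1 for matrix partners in P1 lung, 0 for choline genes in P1 lung, 0 for relatives in P1 lung, 0 for receptors in P6 muscle, 0 for matrix partners in P6 muscle, 0 for choline genes in P6 muscle, 0 for relatives in P6 muscle, 0 for receptors in 6W heart, 0 for matrix partners in 6W heart, 0 for receptors in 6W muscle, 1 for matrix partners in 6W muscle and 0 for relatives in 6W muscle. Without the replicate block, the number of calls was 3 for receptors in P1 heart, 3 for choline genes in P1 heart, 5 for receptors in P1 lung, 3 for matrix partners in P1 lung, 1 for relatives in P1 lung, 0 for matrix partners in P6 muscle, 1 for relatives in P6 muscle, 0 for receptors in 6W heart and 0 for receptors in 6W muscle. With total counts in place of TMM, the number of calls was 5 for receptors in P1 heart. Without 6W heart pairs 5 and 6, the number of calls was 3 for receptors in 6W heart, 9 for matrix partners in 6W heart and 2 for choline genes in 6W heart. Without P1 lung pairs 6, 7 and 8, the number of calls was 1 for receptors in P1 lung, 0 for choline genes in P1 lung and 1 for relatives in P1 lung. Leaving out 1 pair or library at a time gave log2 fold changes of Edil3 in P1 heart -7.42 to -3.97, Slc45a3 in P1 lung -0.39 to 0.037, Slc45a3 in 6W heart -0.68 to 0.056, Slc45a3 in 6W muscle -0.58 to 0.048, Edil3 6W heart over P1 heart in TdTomato+ -2.96 to 1.80 and Enpp6 6W heart over P1 heart in TdTomato+ 1.23 to 2.59. The same gave Edil3 6W muscle over P6 muscle in TdTomato+ -5.47 to -4.73, Slc45a3 6W muscle over P6 muscle in TdTomato+ 0.89 to 1.26, Enpp6 6W muscle over P6 muscle in TdTomato+ -0.25 to 0.38, Enpp6 P1 lung over P1 heart in TdTomato+ -0.19 to 1.42, Fn1 P1 lung over P1 heart in TdTomato+ -0.31 to 0.052 and Slc45a3 6W heart over 6W muscle in TdTomato+ -0.14 to 0.64. The same gave Edil3 6W muscle over P6 muscle in TdTomato- -1.03 to 0.42, Slc45a3 P1 lung over P1 heart in TdTomato- 0.72 to 1.201, Edil3 6W heart over 6W muscle in TdTomato- -0.90 to 0.55, Slc45a3 6W heart over 6W muscle in TdTomato- -0.13 to 0.67, Enpp6 6W heart over 6W muscle in TdTomato- 0.62 to 1.102 and Fn1 6W heart over 6W muscle in TdTomato- 0.59 to 1.09. It gave these numbers of calls: receptors in P1 heart 3 to 10, choline genes in P1 heart 1 to 7, relatives in P1 heart 1 to 2, receptors in P1 lung 6 to 10, matrix partners in P1 lung 2 to 6 and choline genes in P1 lung 0 to 5. Further ranges were relatives in P1 lung 1 to 2, matrix partners in P6 muscle 0 to 2, relatives in P6 muscle 1 to 2, receptors in 6W heart 0 to 1, matrix partners in 6W heart 0 to 5 and choline genes in 6W heart 0 to 2. Further ranges were receptors in 6W muscle 0 to 3.

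Without the replicate block, the genes called numbered 1118 against 2289 for P1 heart, 752 against 1522 for P1 lung, 26 against 152 for P6 muscle, 87 against 136 for 6W heart and 254 against 813 for 6W muscle. With P1 heart pair 1 included, the genes called numbered 1342 against 2289 for P1 heart, 154 against 1522 for P1 lung, 7 against 152 for P6 muscle, 1 against 136 for 6W heart and 8 against 813 for 6W muscle. With each combination fitted alone, the genes called numbered 447 against 2289 for P1 heart, 741 against 1522 for P1 lung, 443 against 152 for P6 muscle and 19 against 136 for 6W heart. With DESeq2 and the replicate block, the genes called numbered 315 against 152 for P6 muscle, 552 against 136 for 6W heart and 1412 against 813 for 6W muscle. With RNA integrity as a covariate, the genes called numbered 737 against 2289 for P1 heart and 27 against 136 for 6W heart. Without P1 lung pairs 6, 7 and 8, the genes called numbered 247 against 1522 for P1 lung. Without 6W heart pairs 5 and 6, the genes called numbered 357 against 136 for 6W heart. With the P1 heart libraries numbered 1 included, the genes called numbered 3572 against 6437 for 6W heart over P1 heart in TdTomato+. With a replicate block by number, the genes called numbered 2208 against 5162 for P1 lung over P1 heart in TdTomato+ and 3488 against 5467 for P1 lung over P1 heart in TdTomato-. Within 1 sequencing run, the genes called numbered 714 against 2252 for 6W heart over 6W muscle in TdTomato+ and 1980 against 3242 for 6W heart over 6W muscle in TdTomato-. Without P1 lung libraries 6, 7 and 8, the genes called numbered 2671 against 5162 for P1 lung over P1 heart in TdTomato+. Leaving out 1 pair or library at a time, the genes called numbered P1 heart 884 to 3338, P1 lung 873 to 1661, P6 muscle 70 to 88, 6W heart 24 to 283 and 6W muscle 239 to 614.

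Replicate numbers shared between ages or tissues did not pair libraries: correlations of same-numbered deviations ran from -0.12 to 0.20, with 5 of 22 above 0.1. At the depth of these libraries Edil3 rests on few counts outside P1 lung and the TdTomato- cells of P1 heart, which limits what its values there can show.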

Other observations

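P1 heart pair 1 was kept out of the models for the failed quality control of its TdTomato+ library, and its levels are scaled by total count alone. Edil3 stood at 0.0531 CPM in the TdTomato+ and 3.17 CPM in the TdTomato- library, Slc45a3 at 0.0531 and 61.5 CPM, and Fn1 at 2.02 and 647 CPM. Abcg2 stood at 900.2 CPM in the TdTomato+ and 183 CPM in the TdTomato- library.

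Venous markers were measured beside Fn1 as well. Of 12, 9 were higher and none lower in TdTomato+ cells of 6W muscle, where Fn1 was lowest and where 1.70% of all genes were higher and 3.53% lower, and their sum was 2688 to 5733 CPM in TdTomato+ and 1477 to 2419 CPM in TdTomato- cells. In P1 heart the venous sum was lower in TdTomato+ cells in 4 of 4 pairs, at 1053 to 1308 CPM in TdTomato+ and 1532 to 1902 CPM in TdTomato- cells. There 2 of the 12 were higher and 5 lower, against 7.51% and 7.21% of all genes. In P1 lung, where Fn1 was higher in TdTomato+ cells, 6 were higher and 0 lower, against 4.88% and 4.90% of all genes. In 6W heart 5 were higher and in P6 muscle 3, with 0 lower, where 0.598% and 0.624% of all genes were higher. The part of venous cells in Fn1 was not tested.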
